A study of Arabidopsis thaliana with 48 samples.

Results

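The 30 genes described here encode nuclear subunits of the photosynthetic electron transport chain of Arabidopsis thaliana: 12 of photosystem I, 10 of photosystem II, 6 electron carriers and 2 subunits of the chloroplast ATP synthase. They were chosen by gene identifier from their known roles, leaving out the light-harvesting antenna genes, from the 32678 genes of the count tables. Earlier results of these data were known when these genes and the other gene lists below were chosen. Each gene was represented by the counts of its longest transcript model, and all 30 passed the filter on low counts. RNA of whole seedlings was sequenced in 14 groups of 3 libraries. The mutant, named snrk1a1/a2 in the labels and abbreviated kd in the titles, and the wild type were each sampled in darkness at 3, 4 and 5 d after germination, in light at 4 d and 5 d, and at 4 d with glucose in light and in darkness. Alleles, the glucose dose, the onset of light and the origin of the replicates (separate cultures or not) are not given in the labels, so p-values measure only the spread between these libraries. In whole seedlings, fewer green cells and less of these mRNAs per cell cannot be told apart.

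Photosystem II takes electrons from water and photosystem I passes them on to ferredoxin; between them run plastoquinone, the cytochrome b6f complex and plastocyanin, and the proton gradient that builds up drives the ATP synthase. The reaction centre proteins are encoded in the chloroplast, whereas the subunits described here are encoded in the nucleus and imported. In Arabidopsis their mRNAs are known to accumulate as seedlings turn green, under control of light-signalling and chloroplast-development regulators, and sugars are known to repress many of them. KIN10 and KIN11 are the catalytic subunits of SnRK1, an energy-sensing protein kinase that starved cells activate.

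The genes named in the mutant's label were not lower throughout in the mutant. For KIN10 (AT3G01090) none of the 7 conditions gave a call of lower mRNA in the mutant, and in 5 of them every mutant library lay above every wild-type library. Its level in CPM (counts scaled to a common library total) was 583, 122 and 154 in the 3 mutant libraries of 4 d light, against 112, 94.2 and 84.4 CPM in wild type, and was called higher there (log2 fold change 1.24 ± 0.40 (SE, n = 3 each), adjusted p = 0.00905). At 5 d in light the mutant libraries had 672, 189.5 and 651 CPM, against 96.0, 167 and 81.4 CPM in wild type (log2 fold change 1.71 ± 0.40, adjusted p = 0.000528). KIN11 (AT3G29160) was called lower at 4 d dark (log2 fold change -0.47 ± 0.17, adjusted p = 0.0205), where the groups overlapped, and at 4 d light with glucose (-1.01 ± 0.18, adjusted p = 0.000542), where they did not. The labels do not say how the mutant was made, so these mRNA levels do not check its label, and mutant here means the libraries labelled snrk1a1/a2. A pair of libraries stood apart: the libraries numbered 2 of the dark glucose groups lay on the first principal component of all genes (38.8% of the variance) at -36.4 for the one labelled mutant, against 10.3 and 12.2 for the other mutant libraries, and at 20.3 for the one labelled wild type, against -36.6 and -43.2 for the other wild-type libraries. Each lay on the side of the other genotype's group. Counts of members called that rest on them are given with and without them, as are those that rest on the 3 mutant light libraries with over 500 CPM of KIN10. Without these KIN10-high libraries the mutant group at 5 d light holds 1 library, which is then assumed to vary like the other groups. Library totals ran from 4956025 to 26126836 counts.

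The promoter windows of a pair of paralogous genes whose balance moved with light, PSAE1 and PSAE2, of 1 gene of another such pair, PSBO1, and of the members with the largest and the smallest median difference between genotypes over the 7 conditions, PSAN and PSBS, are shown first. Each is the 250 bases before the start of the counted model, read 5′ to 3′ on the gene's strand from the TAIR10.1 chromosomes at the files' TAIR10 coordinates. Capitals mark the G-box CACGTG, the I-box core GATAAG and the CCAATC element, in either orientation, motifs known from promoters of light-regulated plant genes. The windows lie at chr4:14203962-14204211 (minus strand) for PSAE1, chr2:8736484-8736733 (plus) for PSAE2, chr5:26568403-26568652 (plus) for PSBO1, chr5:25629616-25629865 (minus) for PSAN and chr1:16871446-16871695 (plus) for PSBS.
PSAE1: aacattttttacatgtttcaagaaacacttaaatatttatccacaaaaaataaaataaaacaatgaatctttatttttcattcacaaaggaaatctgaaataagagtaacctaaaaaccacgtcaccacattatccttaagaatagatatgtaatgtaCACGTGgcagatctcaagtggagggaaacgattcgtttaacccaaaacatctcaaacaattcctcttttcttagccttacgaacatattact
PSAE2: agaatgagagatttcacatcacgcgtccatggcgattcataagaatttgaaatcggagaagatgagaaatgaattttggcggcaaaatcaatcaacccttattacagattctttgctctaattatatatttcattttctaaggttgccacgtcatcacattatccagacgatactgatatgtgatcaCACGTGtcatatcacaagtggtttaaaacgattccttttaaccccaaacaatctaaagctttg
PSBO1: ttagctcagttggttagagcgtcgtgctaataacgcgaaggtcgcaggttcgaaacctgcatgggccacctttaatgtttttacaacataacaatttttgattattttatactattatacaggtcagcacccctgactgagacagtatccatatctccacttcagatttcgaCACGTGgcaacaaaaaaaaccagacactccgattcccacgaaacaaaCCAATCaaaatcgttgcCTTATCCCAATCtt
PSAN: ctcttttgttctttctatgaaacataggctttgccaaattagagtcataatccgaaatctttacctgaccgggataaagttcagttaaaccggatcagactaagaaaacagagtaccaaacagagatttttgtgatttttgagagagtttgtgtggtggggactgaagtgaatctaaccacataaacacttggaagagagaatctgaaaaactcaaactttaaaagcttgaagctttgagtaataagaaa
PSBS: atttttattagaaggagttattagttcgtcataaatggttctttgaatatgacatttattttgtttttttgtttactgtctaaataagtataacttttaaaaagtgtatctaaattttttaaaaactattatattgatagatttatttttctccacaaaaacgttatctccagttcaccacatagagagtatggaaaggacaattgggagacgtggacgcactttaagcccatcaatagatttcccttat
The windows of PSAE1, PSAE2 and PSBO1 each held a G-box, which lay 92 bases before the start of PSAE1, 63 before PSAE2 and 78 before PSBO1. The PSBO1 window also held an I-box core and 2 CCAATC elements, and the PSAN and PSBS windows held none of the 3 motifs. Over all 30 members, 12 windows (40%) held a G-box, against 6.83% of 32383 gene windows of the same length. The I-box core was found in 18 members (60%, against 13.1% of all windows) and CCAATC in 11 (36.7%, against 11.1%). The PSAE2, PSBO1 and PSAN windows also hold exons of a neighbouring gene (AT2G20250, AT5G66568 and AT5G64050). A match is a run of letters and not a measured site.

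The members together took a smaller share of all counts in the mutant than in wild type in each of the 5 conditions without glucose. In light, the share was 0.671 ± 0.138% in the mutant and 2.22 ± 0.0705% in wild type at 4 d (SD, n = 3 each), and 0.390 ± 0.106% in the mutant and 1.87 ± 0.0836% in wild type at 5 d. In darkness it was 0.706 ± 0.134% in the mutant and 1.54 ± 0.423% in wild type at 3 d, 0.421 ± 0.102% in the mutant and 1.6 ± 0.0862% in wild type at 4 d, and 0.221 ± 0.121% in the mutant and 0.728 ± 0.177% in wild type at 5 d. With glucose the gap was narrower. The share was 0.929 ± 0.0814% in the mutant and 1.38 ± 0.0889% in wild type in light, and 0.806 ± 0.252% in the mutant and 1.02 ± 0.389% in wild type in darkness. The dark glucose groups were split by their libraries numbered 2, at 1.1% for the library labelled mutant, against 0.663% and 0.658% in the other mutant libraries, and at 0.568% for the library labelled wild type, against 1.23% and 1.25% in the other wild-type libraries.

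**Figure D1:**
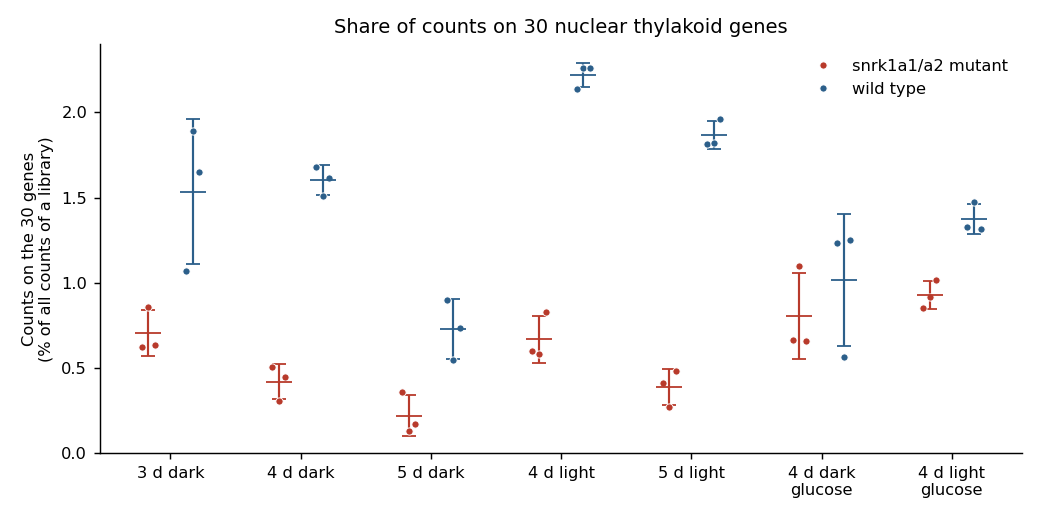
Share of all counts taken by the 30 members, in percent, in each of the 42 libraries (points), with the mean of each group (horizontal dash) and its SD (error bars), by condition, mutant in red and wild type in blue. The mutant means lie between 0.221% and 0.929%, the wild-type means between 0.728% and 2.22%, and the groups overlap in dark with glucose.

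Every member had its lowest mean level, in CPM per kb of exon, in the mutant at 5 d dark. The highest mean level was in wild type at 4 d light for 23 members, in wild type at 4 d dark for 4 (PSAE2, PSAG, PSAL and PSBQ2), in wild type at 5 d light for 2 (PSBR and PETC) and in wild type at 3 d dark for 1 (PSBS). The highest group mean was 7.10 times the lowest for PSBS and 20.4 times the lowest for PSBO2 and PSAN, the ends of the range. Levels also differed between members. In wild type at 4 d light the lowest was LFNR2, a ferredoxin-NADP+ reductase, at 204 CPM per kb, the median member stood at 1240 CPM per kb, and the highest was PSBR, a small subunit near the oxygen-evolving complex, at 3508 CPM per kb. PSBR was the highest member in 12 of the 14 groups, PSBO1 in the other 2 (both dark with glucose), and LFNR2 the lowest in 13, with PETE1 the lowest in the mutant at 4 d light with glucose.

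Without glucose, all 30 members were called lower in the mutant in each of the 5 conditions. The median log2 fold change, mutant over wild type, was -1.28 at 3 d dark (2.42-fold lower; 14.3% of the 22586 genes tested were called lower there), -2.29 at 4 d dark (4.87-fold; 28.5%) and -1.95 at 5 d dark (3.85-fold; 31.4%). In light it was -2.05 at 4 d (4.15-fold; 25.2%) and -2.58 at 5 d (5.98-fold; 26.4%). The median over all genes tested lay between -0.04 and 0.19 in these comparisons. Mutant libraries all lay below all wild-type libraries for 29 members at 3 d dark (16.8% of all genes), 30 at 4 d dark (24.7%), 25 at 5 d dark (25.7%), 30 at 4 d light (17.8%) and 30 at 5 d light (16.8%). The count stayed between 26 and 30 when any single library was left out, and was 30 at 4 d light without the KIN10-high library. At 5 d light, with 1 mutant library left, it was also 30. Scaling by library totals alone moved the median of all genes by up to 0.45. That was at 5 d light, where it was 0.64, against 0.19 with TMM factors. The members' median there was -2.12 by library totals.

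**Figure D2:**
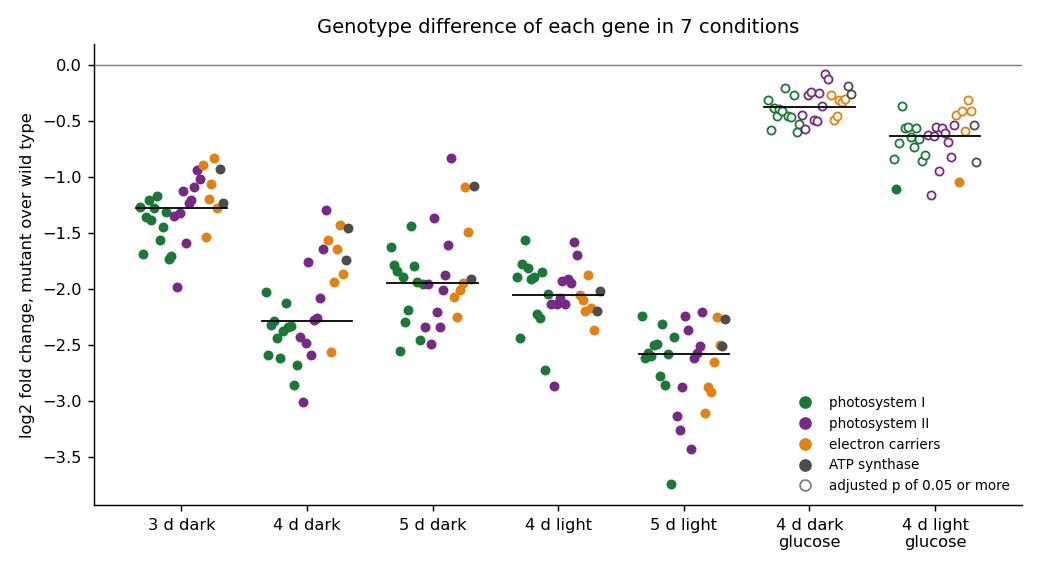
Log2 fold change, mutant over wild type, of each of the 30 members (points, coloured by role) in the 7 conditions on the horizontal axis, with the members' median as a black line and members at an adjusted p of 0.05 or more as open points. All values without glucose lie below 0, between -3.75 (PSAN, 5 d light) and -0.83 (LFNR1, 3 d dark), and the medians with glucose lie closer to 0.

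Among the photosystem I subunits the largest median difference was that of PSAN (AT5G64040), a subunit on the lumen side that takes part in docking plastocyanin. PSAN stood at 136, 96.8 and 156 CPM in 5 d light mutants, against 1270, 1212 and 1333 CPM in wild type. At 4 d dark it stood at 118, 67.8 and 121 CPM in mutant seedlings, against 674.5, 539 and 645 CPM in wild type. Every mutant library lay far below every wild-type library in both conditions, with log2 fold changes of -3.75 ± 0.38 (adjusted p = 4.27e-10) and -2.86 ± 0.36 (adjusted p = 6.23e-08). Over the 5 conditions its median was -2.72, or 6.60-fold lower. PSAD1 (AT4G02770) and PSAD2 (AT1G03130), PSAE1 (AT4G28750) and PSAE2 (AT2G20260), which form the stromal side where ferredoxin docks, had medians of -1.90, -2.44, -1.84 and -2.29 in that order. PSAF (AT1G31330), a plastocyanin-docking subunit, had -1.90, PSAG (AT1G55670) and PSAK (AT1G30380), at the edge facing the antenna, -2.30 and -2.27. PSAH1 (AT3G16140), PSAH2 (AT1G52230), PSAL (AT4G12800) and PSAO (AT1G08380), subunits of the side at which light-harvesting complex II can dock, had -2.19, -2.13, -1.94 and -2.05. After PSAN, the lowest of these medians was that of PSAD2.

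Among the photosystem II genes, PSBO2 (AT3G50820), which like PSBO1 (AT5G66570) encodes the manganese-stabilising protein of the oxygen-evolving complex, had the largest median over the 5 conditions, -2.87 or 7.32-fold lower. At 4 d dark PSBO2 stood at 67.3, 47.7 and 57.3 CPM in mutant seedlings, against 390.6, 374.6 and 392.2 CPM in wild type (log2 fold change -3.01 ± 0.47, adjusted p = 1.98e-06). At 4 d light it stood at 177, 127 and 205 CPM in mutant seedlings, against 949, 1094 and 1006 CPM in wild type (-2.87 ± 0.46, adjusted p = 4.3e-06). The groups did not overlap, and the lowest wild-type library had several times the level of the highest mutant library. PSBO1 had a median of -2.35, the other extrinsic subunits PSBP1 (AT1G06680), PSBQ1 (AT4G21280) and PSBQ2 (AT4G05180) had -2.49, -1.76 and -2.20, and PSBR (AT1G79040) had -2.28. The small intrinsic subunits PSBW (AT2G30570), PSBX (AT2G06520) and PSBY (AT1G67740) had -2.01, -1.95 and -1.61. PSBR reached -3.43 ± 0.34 at 5 d light (adjusted p = 3.63e-10).

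The smallest median of all 30 members was that of PSBS (AT1G44575), which is not a subunit of the electron transport chain proper but the sensor of lumen acidity in the dissipation of excess light energy. Its median was -1.30, or 2.46-fold lower. At 5 d dark PSBS stood at 226, 64.1 and 77.9 CPM in mutant seedlings, against 268, 129 and 163 CPM in wild type (log2 fold change -0.84 ± 0.36, adjusted p = 0.0416). The groups overlapped, since mutant library 1 lay above 2 of the 3 wild-type libraries. At 4 d dark it stood at 263, 200 and 183 CPM in mutant seedlings, against 426, 475 and 424 CPM in wild type, with no overlap (-1.30 ± 0.36, adjusted p = 0.00246).

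The electron carriers and the ATP synthase subunits moved in the same direction. PETC (AT4G03280), the Rieske iron-sulfur protein of the cytochrome b6f complex, had a median of -2.06. It stood at 156, 125 and 165 CPM in 5 d light mutants, against 924, 943 and 948 CPM in wild type, without overlap (log2 fold change -3.11 ± 0.28, adjusted p = 3.12e-11). The plastocyanin genes PETE1 (AT1G76100) and PETE2 (AT1G20340) had medians of -2.25 and -2.01, and FD2 (AT1G60950), the main leaf ferredoxin, had -1.88. The ferredoxin-NADP+ reductases LFNR1 (AT5G66190) and LFNR2 (AT1G20020) had -1.43 and -1.86, and the ATP synthase subunits gamma, ATPC1 (AT4G04640), and delta, ATPD (AT4G09650), had -1.92 and -1.46. At 4 d dark the carriers' median was -1.76 and that of the photosystem I genes -2.36, whereas at 4 d light the carriers stood at -2.14 and the photosystem I genes at -1.91. Whether the roles differed was not tested.

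With glucose the members' differences between genotypes lay closer to 0. In light with glucose, 2 of 30 members were called lower in the mutant, PSAD2 (log2 fold change -1.11 ± 0.35, adjusted p = 0.0431) and PETE1 (-1.04 ± 0.32, adjusted p = 0.0356), where 5.17% of all genes were called lower. PSAD2 stood at 105, 95.8 and 108 CPM in mutant seedlings, against 223.5, 221 and 199 CPM in wild type, so the groups did not overlap. The same held for 28 of the 30 members, against 15.2% of all genes, and the median was -0.63 (1.55-fold lower). The count was 0 when any 1 of the 6 libraries was left out, 4 in DESeq2, and 26 when the fit held only these 6 libraries. In darkness with glucose, edgeR called 0 of 30 members lower (0 at an unadjusted p below 0.05, 0 in DESeq2), where 0.0% of all genes were called lower, and the median was -0.37. Without the libraries numbered 2, 8 members were called lower there, with a median of -1.0 over all 30, PSBO2 at -1.54 ± 0.44 (adjusted p = 0.0354), PSBQ2 at -1.41 ± 0.42 (adjusted p = 0.0471) and PSAD2 at -1.4 ± 0.35 (adjusted p = 0.0156) being the lowest. PSBO2 stood at 117, 264 and 110 CPM in the mutant, the second of these in the library labelled mutant 2, against 285, 86.1 and 347 CPM in wild type, the second in the library labelled wild type 2.

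Light and dark were compared within each genotype and age. In the mutant at 4 d, 5 members were called higher in light (median log2 fold change 0.73; 1.62% of all genes called higher): PSAN (1.27 ± 0.34), PSBO2 (1.63 ± 0.44), PSBY (1.08 ± 0.28), PETE1 (1.24 ± 0.33) and FD2 (0.98 ± 0.27), with adjusted p between 0.0335 and 0.0404. PSBO2 stood at 177, 127 and 205 CPM in light, against 67.3, 47.7 and 57.3 CPM in darkness. No library of one group reached the other, as for 20 of the 30 members, against 6.65% of all genes. The count fell to 0 without mutant dark library 1, 2 or 3, or without mutant light library 2 or 3. It was 5 without the KIN10-high library. In the mutant at 5 d, all light libraries lay above all dark libraries for only 3 of the 30 members, against 8.95% of all genes. There, 10 members were called higher (median 0.84, 6.8% of all genes), among them PETE1 (1.12 ± 0.34, adjusted p = 0.0315) and PSAK (1.1 ± 0.37, adjusted p = 0.047). This count was 29 without mutant dark library 1, 20 without light library 2, 1 without light library 1, and 0 without dark library 2, dark library 3 or light library 3, as well as 0 without the KIN10-high libraries, which leaves 1 light library. In the mutant with glucose, edgeR called 0 (4 at an unadjusted p below 0.05, 2 in DESeq2; median 0.23; 0.956% of all genes), and 1 without the dark library labelled mutant 2.

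In wild type without glucose, members were higher in light, most of them at 5 d. At 5 d, 28 of 30 members were called higher in light than in darkness (median log2 fold change 1.62; 16.5% of all genes called higher). PSBO2 stood at 798, 684 and 890 CPM in light, against 212, 130 and 151 CPM in darkness (2.47 ± 0.45, adjusted p = 6.45e-05). PSAN stood at 1270, 1212 and 1333 CPM in light, against 351, 239 and 283 CPM in darkness (2.33 ± 0.35, adjusted p = 3.58e-06). All light libraries lay above all dark libraries for these genes, as for all 30 members, against 15.7% of all genes. PSAE2 (0.49 ± 0.31, adjusted p = 0.229) and PSBQ2 (0.69 ± 0.41, adjusted p = 0.198) did not pass the test. In wild type at 4 d, 11 members were called higher (median 0.77; 14.4% of all genes): PSAN, PSBO2, PSBQ1, PSBY, all carriers but PETE1, and both ATP synthase subunits. The count was 24 when the fit held only the 6 libraries. The largest of these was PSBO2 (1.49 ± 0.44, adjusted p = 0.0103). PSAE2 stood at 342, 357 and 386 CPM in light, against 452, 394 and 478 CPM in darkness, each light library below each dark one, and was not called (-0.19 ± 0.31, adjusted p = 0.698). With glucose, 3 members were called higher in light in wild type (median 0.53; 4.35% of all genes), namely LFNR2 (1.19 ± 0.30, adjusted p = 0.0106), PSBY (1.11 ± 0.28, adjusted p = 0.00967) and PETC (1.01 ± 0.26, adjusted p = 0.0104). Without the dark library labelled wild type 2 none was called (5 without library 1).

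**Figure D3:**
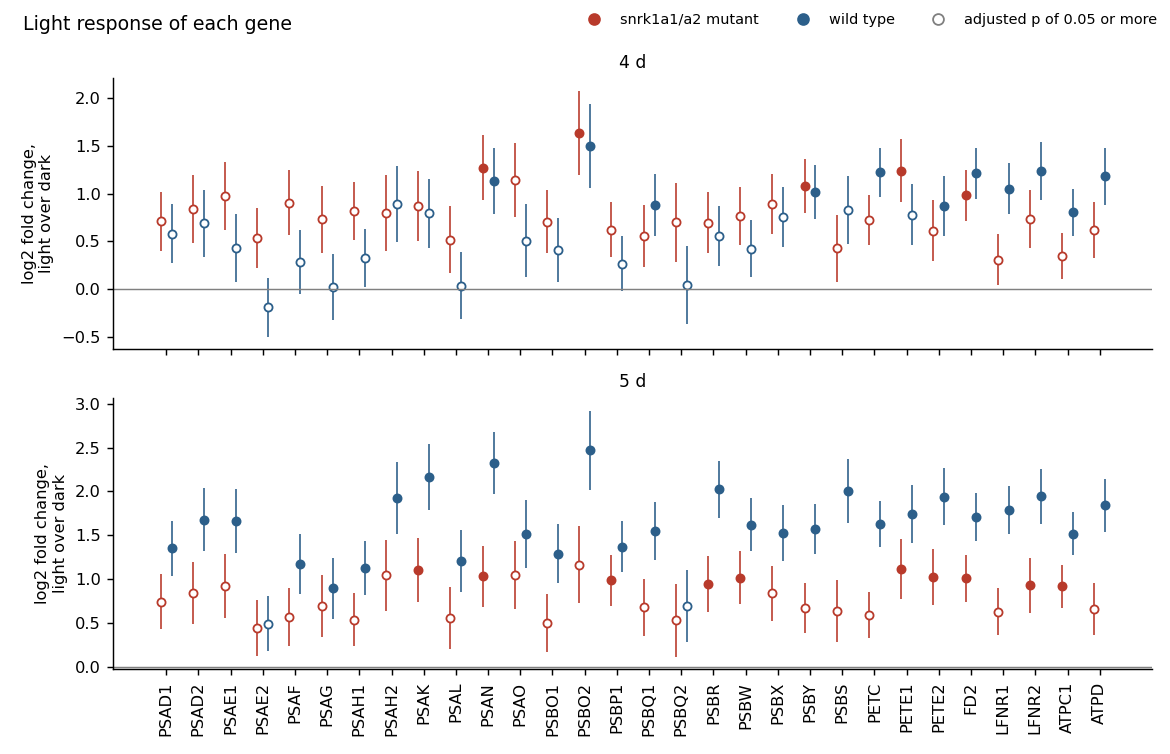
Log2 fold change of each member, light over dark, in mutant (red) and wild type (blue) at 4 d (top) and 5 d (bottom) without glucose, with standard errors as bars and members at an adjusted p of 0.05 or more as open points. Mutant medians are 0.73 at 4 d and 0.84 at 5 d, wild-type medians 0.77 at 4 d and 1.62 at 5 d.

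The test of the genotypes' light responses against each other used the difference of log2 fold changes, mutant minus wild type. At 5 d the response was called smaller in the mutant for 5 members (median over the 30, -0.76; 11.2% of all genes called lower): PSBS (-1.37 ± 0.50, adjusted p = 0.0395), PSAN (-1.30 ± 0.48, adjusted p = 0.043), ATPD (-1.19 ± 0.42, adjusted p = 0.0318), LFNR1 (-1.16 ± 0.38, adjusted p = 0.0229) and PETC (-1.04 ± 0.36, adjusted p = 0.0323). PSBS stood at 238, 88.7 and 259 CPM in the mutant in light and at 226, 64.1 and 77.9 CPM in the mutant in darkness, which overlapped, whereas in wild type it stood at 658, 642 and 667 CPM in light and at 268, 129 and 163 CPM in darkness, far apart. The count of 5 was 0 without wild-type dark library 2, mutant dark library 1 or mutant light library 2, 1 without wild-type dark library 3 or wild-type light library 3, 2 without wild-type light library 1 and 9 without mutant dark library 2. Without the KIN10-high libraries, which leaves 1 mutant light library, it was 6, with a median of -1.24. At 4 d edgeR called 0 members (0 at an unadjusted p below 0.05, 0 in DESeq2; median 0.14; 4.82% of all genes called higher), and with glucose also 0 (0 at an unadjusted p below 0.05, 0 in DESeq2; median -0.31; 0.0531% called lower), where the median was 0.33 without the dark libraries numbered 2.

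With age in darkness, a minority of members were called lower in the mutant at each step. In wild type most were called lower from 4 d to 5 d and none from 3 d to 4 d. In the mutant, 13 members were called lower at 4 d than at 3 d (median log2 fold change -0.86; 12.7% of all genes called lower), among them PETE1 (-1.28 ± 0.33, adjusted p = 0.00568), at 27.1, 22.0 and 23.1 CPM at 4 d, against 50.3, 68.4 and 49.9 CPM at 3 d, with no overlap. The count was 4 without mutant 4 d dark library 2, and 5 without 4 d library 3 or 3 d library 2. At 5 d against 4 d in darkness, 9 were called lower in the mutant (median -0.91; 7.93% of all genes), the largest PETE2 (-1.14 ± 0.32, adjusted p = 0.018). That count was 28 without mutant 5 d dark library 1, the highest of its group for all 30 members, 15 without 4 d library 2, and 0 without 4 d library 1 or 5 d library 2 or 3. All 5 d mutant libraries lay below all 4 d mutant libraries in darkness for 8 of the 30 members, against 17% of all genes. In wild type, edgeR called 0 members lower at 4 d than at 3 d in darkness (4 at an unadjusted p below 0.05, 1 in DESeq2; 1 without wild-type 3 d dark library 1; median -0.01; 12% of all genes). At 5 d against 4 d in darkness, 21 were called lower in wild type (median -1.21; 4.51% of all genes), the largest PSAH2 (-1.74 ± 0.41, adjusted p = 0.00751), and every 5 d library lay below every 4 d library for all 30 (13.8% of all genes). The count of 21 was 5 without wild-type 5 d dark library 2, 13 without 5 d library 3 and 9 without 4 d library 1. PETC was not among them (-0.30 ± 0.26, adjusted p = 0.507).

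In light, 3 members of the mutant were called lower at 5 d than at 4 d (median log2 fold change -0.88; 1.5% of all genes): PSBY (-1.18 ± 0.28, adjusted p = 0.02), FD2 (-0.99 ± 0.27, adjusted p = 0.0402) and PETC (-0.95 ± 0.26, adjusted p = 0.042). For 23 of the 30 members all 5 d libraries lay below all 4 d libraries, against 4.67% of all genes. The count of 3 was 10 without mutant 4 d light library 1, 1 without 4 d library 2 or 5 d library 3, and 0 without 4 d library 3, 5 d library 1, or the KIN10-high libraries, which leaves 1 library at 5 d. In wild type in light, edgeR called 0 members lower at 5 d than at 4 d (2 at an unadjusted p below 0.05, 0 in DESeq2). The median was -0.23, and 13.2% of all genes were called lower. All 5 d libraries lay below all 4 d libraries for 22 of the 30 wild-type members, against 25.5% of all genes. They lay above for 1 member, against 19.9% of all genes. The highest value was that of PSBR (0.61 ± 0.31, adjusted p = 0.152). PSBR stood at 3613, 3715 and 3614 CPM at 5 d, against 2552, 2427 and 2597.5 CPM at 4 d, with no overlap.

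In darkness most members were called higher with glucose in the mutant and lower with glucose in wild type. Without the dark glucose libraries numbered 2, only a minority were so called in either genotype. In light the share called higher in the mutant was near that of all genes, and most members were called lower in wild type. All glucose libraries carry titles of a second series and all other 4 d libraries titles of the first, so glucose and series cannot be told apart; the 3 d dark libraries, which stand in both, had counts that agreed between the series almost within counting error. In the mutant, 22 members were called higher with glucose in darkness (median log2 fold change 0.94; 19.3% of all genes called higher), led by PSBO2 (1.51 ± 0.44, adjusted p = 0.00684) and PETE1 (1.4 ± 0.33, adjusted p = 0.00104). PSBO2 stood at 117, 264 and 110 CPM with glucose, the second in the library labelled mutant 2, against 67.3, 47.7 and 57.3 CPM without, and no library overlapped. The count was 4 without that library, 5 without both libraries numbered 2 and 8 without mutant 4 d dark library 2. In light, 6 (20%) were called higher (median 0.38), close to the 19.8% of all genes. They were LFNR2 (1.1 ± 0.30, adjusted p = 0.00412), ATPC1 (0.91 ± 0.24, adjusted p = 0.00273), LFNR1 (0.82 ± 0.27, adjusted p = 0.0139), PETE2 (0.79 ± 0.32, adjusted p = 0.0444), ATPD (0.72 ± 0.29, adjusted p = 0.0454) and PETC (0.66 ± 0.26, adjusted p = 0.0378). ATPC1 stood at 361, 338 and 317 CPM with glucose, against 188, 129 and 214 CPM without, and the groups did not overlap. PSAD2 had the lowest value (-0.46 ± 0.35, adjusted p = 0.303). The count of 6 was 2 without mutant 4 d light library 2, 3 without 4 d light library 1 and 3 without light glucose library 1, 2 or 3.

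In wild type, 19 members were called lower with glucose in darkness (median log2 fold change -0.88; 20.9% of all genes called lower) and 22 in light (median -0.95; 18.3%). The largest was PSAD2 in both, at 227, 89.97 and 240 CPM with glucose, against 470.5, 403 and 359.5 CPM without, in darkness (-1.39 ± 0.35, adjusted p = 0.00199), and at 223.5, 221 and 199 CPM with glucose, against 582, 612 and 660 CPM without, in light (-1.79 ± 0.36, adjusted p = 0.000179). No library of either treatment overlapped the other. ATPD did not pass in darkness (-0.08 ± 0.29, adjusted p = 0.857) or in light (-0.43 ± 0.29, adjusted p = 0.258). The dark count was 7 without the library labelled wild type 2, 8 without both dark glucose libraries numbered 2, and 11 and 10 without wild-type 4 d dark library 1 and 3. The light count was 13 and 14 without wild-type light glucose library 1 and 3. In darkness 12 members, and in light 5, were called in both genotypes, higher in the mutant and lower in wild type. Of all genes, 2.29% were so called in darkness and 1.61% in light. Without the dark glucose libraries numbered 2, the dark number was 1.

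**Figure D4:**
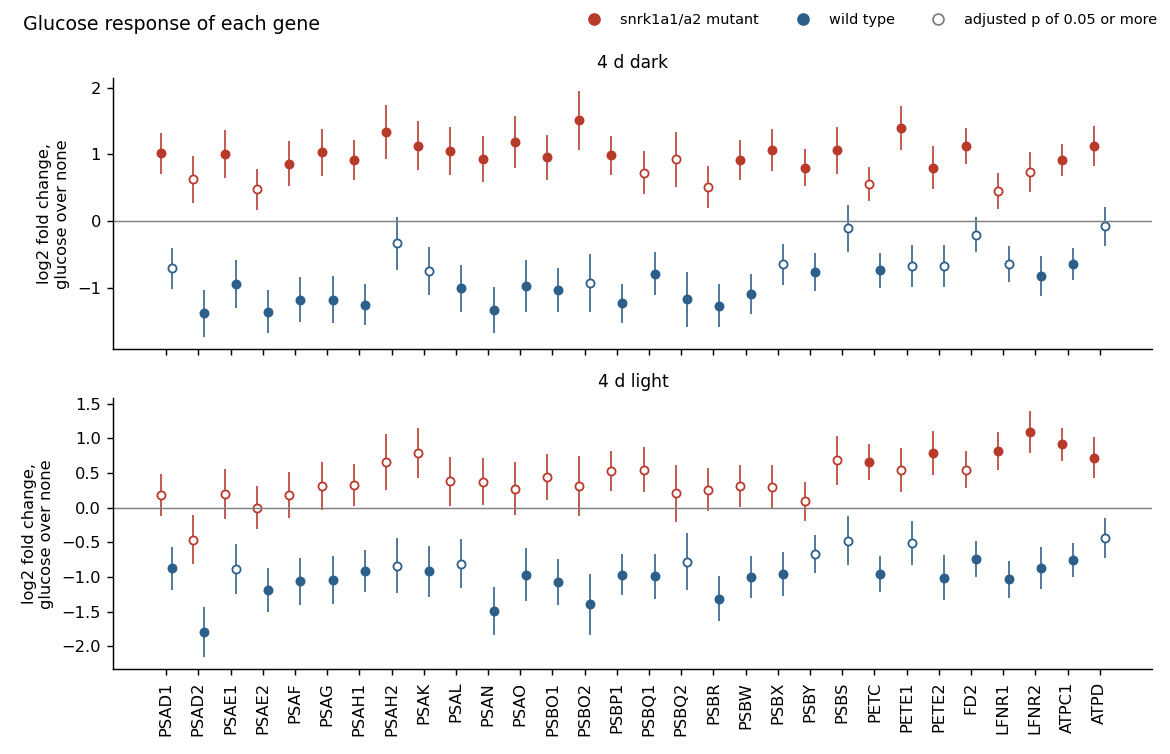
Log2 fold change of each member, glucose over none, in mutant (red) and wild type (blue) at 4 d in darkness (top) and in light (bottom), with standard errors as bars and open points as members at an adjusted p of 0.05 or more. Mutant medians are 0.94 in darkness and 0.38 in light, wild-type medians -0.88 in darkness and -0.95 in light.

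The difference of the genotypes' glucose responses, mutant minus wild type, was called above 0 for 29 members in darkness (median 1.86; 17.5% of all genes called higher) and for 22 in light (median 1.32; 13.8%). In darkness it ran from 1.09 ± 0.38 for LFNR1 (adjusted p = 0.023) to 2.44 ± 0.62 for PSBO2 (adjusted p = 0.00241), and PSBS was the member not called (1.17 ± 0.50, adjusted p = 0.0639). In light LFNR2 (1.96 ± 0.43, adjusted p = 0.000791), PSAN (1.86 ± 0.48, adjusted p = 0.00359) and LFNR1 (1.85 ± 0.38, adjusted p = 0.000413) had the largest values. LFNR1 in light stood at 281, 208 and 283 CPM in the mutant with glucose and at 139, 112 and 177 CPM in the mutant without, and in wild type at 312, 332 and 286 CPM with glucose and at 520, 503 and 556 CPM without. Its mutant libraries were thus higher with glucose and its wild-type libraries lower, in each case without overlap. The dark count was 14 without the dark glucose libraries numbered 2, with a median of 1.21. The light count was 13 without wild-type light glucose library 3 or mutant 4 d light library 2, 14 without mutant 4 d light library 1 and 20 without the KIN10-high library.

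In 7 pairs of paralogs the balance of the genes was compared as the log2 ratio of counts per kb, first gene over second, with an exact two-sided permutation test of genotype labels within the 7 conditions and of light labels within the 6 sets of genotype, age and glucose. The 14 p-values were adjusted together. The pairs share 70.9% (PETE) to 83.3% (PSAD) of aligned transcript bases and no identical run of 50 bases. PSAD1 exceeded PSAD2 in every group, by 1.06 ± 0.08 (wild type, 5 d light) to 2.34 ± 0.17 (mutant, light glucose; log2 ratio, SD, n = 3). The ratio was higher in the mutant in 7 of 7 conditions, by 0.37 on average (exact p = 2.23e-07, adjusted p = 1.97e-06), and with light differed by -0.07 (exact p = 0.213, adjusted p = 0.271). In the glucose groups it was 2.28 ± 0.30 in the mutant and 2.02 ± 0.26 in wild type in darkness, and 2.34 ± 0.17 in the mutant and 2.08 ± 0.05 in wild type in light. Without the dark libraries numbered 2 it was 2.45 in the mutant and 1.87 in wild type. It lay between 1.06 and 1.81 in all groups without glucose. Leaving out the dark glucose libraries numbered 2 moved none of the 14 adjusted p-values across 0.05.

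The PSAE pair moved with light. PSAE1 over PSAE2 was higher in light in 6 of 6 sets, by 0.57 (exact p = 2.81e-07, adjusted p = 1.97e-06), and differed by 0.02 on average between mutant and wild type (exact p = 0.81), with conditions from -0.32 to 0.73, higher in the mutant in 3 and lower in 4. The highest was 5 d dark, at 0.63 ± 0.15 in the mutant and -0.10 ± 0.34 in wild type, without overlap. In wild type in darkness the log2 ratio was 1.37 ± 0.05 at 3 d, 0.84 ± 0.07 at 4 d and -0.10 ± 0.34 at 5 d, where the genes were about even per kb. At 5 d dark in wild type PSAE1 stood at 417, 209 and 331 CPM and PSAE2 at 311, 250 and 302 CPM. The PSBO pair moved with both. PSBO1 over PSBO2 was lower in light in 6 of 6 sets, by -0.78 (exact p = 2.13e-06, adjusted p = 9.73e-06). It was higher in the mutant by 0.33 on average (exact p = 0.00329, adjusted p = 0.00575), in 6 of 7 conditions, with conditions from -0.45 to 0.75. The exception was 5 d dark, at 2.96, 2.88 and 2.66 in the mutant and 3.08, 3.32 and 3.45 in wild type, lower in the mutant without overlap. Its group means ran from 1.80 ± 0.12 (wild type, 4 d light) to 3.42 ± 0.32 (mutant, 4 d dark), so PSBO1 was the higher gene in all groups.

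PSBQ1 over PSBQ2 was higher in the mutant in 6 of 7 conditions, by 0.41 (exact p = 0.000157, adjusted p = 0.000366), and higher in light in 5 of 6 sets, by 0.34 (exact p = 0.00501, adjusted p = 0.00779). In darkness the ratio was 0.85 ± 0.52 in the mutant and -0.07 ± 0.16 in wild type at 4 d, and 0.65 ± 0.08 in the mutant and -0.24 ± 0.26 in wild type at 5 d. LFNR1 over LFNR2 was higher in the mutant in 6 of 7 conditions, by 0.26 (exact p = 5.96e-05, adjusted p = 0.000167), and lower in light in 6 of 6 sets, by -0.33 (exact p = 2.78e-06, adjusted p = 9.73e-06). PETE1 over PETE2, with group means between -3.42 and -2.41, was lower in the mutant in 5 of 7 conditions, by -0.25 (exact p = 0.000847, adjusted p = 0.0017), and differed by 0.09 with light (exact p = 0.253). PSAH1 over PSAH2 differed by -0.07 on average between genotypes (exact p = 0.524), with conditions from -0.84 (5 d dark) to 0.35 (3 d dark), higher in the mutant in 4 and lower in 3. It differed by -0.27 with light (exact p = 0.0267, adjusted p = 0.0373), but the sets were split 3 to 3, from -0.91 to 0.19. Without the KIN10-high libraries the PSAH light value was -0.14 (adjusted p = 0.313). Its adjusted p also lay above 0.05, at up to 0.0713, when any 1 of these libraries was left out: mutant 4 d light 1, 4 d dark 3, 5 d light 1 or 3, 5 d dark 2, light glucose 1 or dark glucose 3, or wild type 4 d dark 3, 5 d light 1, 2 or 3, 5 d dark 2 or 3, or dark glucose 2.

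**Figure D5:**
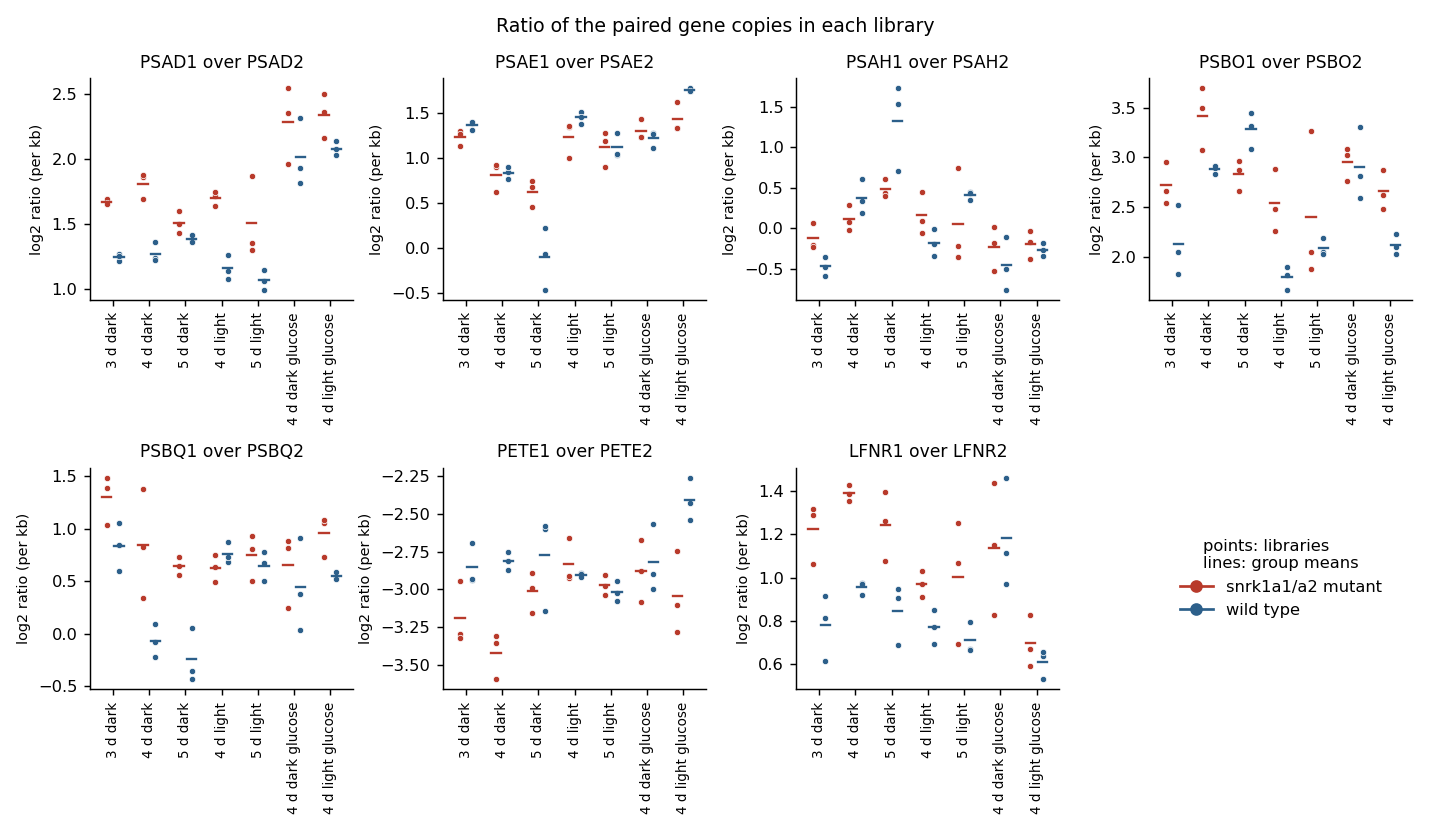
Log2 ratio of counts per kb, first over second gene of 7 paralog pairs, in each library (points) by condition, mutant in red and wild type in blue, with group means as lines. PSAD1 over PSAD2 lies higher in the mutant in all 7 conditions, and PSBO1 over PSBO2 lies lower in light than in darkness.

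Reads were counted without a visible strand option, and 4 members share exon bases with a gene on the opposite strand, from which their reads cannot be told apart: PSAE2 shares 63 bases with AT2G20270, PSAH1 266 with AT3G16130, PSBR 49 with AT1G79050 and LFNR1 154 with AT5G66180. The PSAE, PSAH and LFNR ratios hold this limit.

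Other genes of the same pathway and the markers of tissue type are set beside the members. Of 25 other nuclear electron transport genes, 18, 19 and 21 were called lower in the mutant at 3, 4 and 5 d dark and 24 and 25 at 4 d and 5 d light, with medians from -0.91 to -2.40, and 0 in dark and 6 in light with glucose. NDHM, a subunit of the chloroplast NDH complex, was lowest at 5 d light (-3.67 ± 0.43, adjusted p = 1.36e-08), and ATPC2, a second ATP synthase gamma gene, was at 0.27 ± 0.18 at 4 d light (adjusted p = 0.201). Of 21 antenna genes, 19 to 21 were called lower in each condition without glucose, and of 17 thylakoid assembly factors 10 to 17. Of 22 chloroplast-encoded subunits, 1, 2, 5, 1 and 6 were called lower at 3 d dark, 4 d dark, 5 d dark, 4 d light and 5 d light. The share of all genes called lower was 14.3%, 28.5%, 31.4%, 25.2% and 26.4% in that order. The subunits' medians were 0.16, -1.23, -2.23, -0.92 and -1.58 in that order. Few calls thus do not show that the differences were small, but most of these differences did not pass the test. Libraries of a group scattered widely, with 9670 to 19030 CPM summed over these subunits in wild type at 4 d light. Of 10 Calvin cycle genes, which mark green tissue, 8 to 10 were called lower without glucose, and 0 in dark and 1 in light with glucose. Their summed level ran from 5227 to 7909 CPM in 4 d light mutants, against 30240 to 35980 CPM in wild type.

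Of 12 root tissue markers, 1, 1, 1, 1 and 2 were called higher and 3, 5, 7, 4 and 2 lower in the mutant at 3 d dark, 4 d dark, 5 d dark, 4 d light and 5 d light. Of all genes, 14.3%, 28.5%, 31.4%, 25.2% and 26.4% were called lower in that order. At the ends of this mixed list, NRT2.1, a nitrate transporter, was the highest (3.75 ± 0.75 at 4 d light, adjusted p = 0.000101) and CASP2, an endodermis gene, the lowest at 5 d dark (-2.86 ± 0.32, adjusted p = 4.38e-09). The summed level of these 12 markers ran from 157 to 186 CPM in 4 d light mutants, against 196 to 215 CPM in wild type. That sum is weighted towards the markers with high counts, and whether these are confined to roots cannot be seen in whole seedlings. Over all libraries GL2 reached 203 CPM and CASP1 93.7 CPM, whereas WOX5, PLT1, PLT2, RHD6, COBL9 and EXPA7 stayed at or below 9.30 CPM. The root-hair markers RHD6, COBL9 and EXPA7 were at 0 in 1, 2 and 2 libraries. The part of tissue make-up in the members' differences was not tested. Of 15 regulators of chloroplast genes, 8, 11, 10, 11 and 13 were called lower in the same order and 1 higher, HYH at 4 d dark (1.09 ± 0.33, adjusted p = 0.0058). CGA1, a GATA factor of chloroplast development, was the lowest regulator in 4 d light (-3.22 ± 0.48, adjusted p = 1.67e-06) and in 5 d light (-4.20 ± 0.51, adjusted p = 2.53e-08), and PIF4, a phytochrome-interacting factor, was lowest at 4 d dark (-3.34 ± 0.36, adjusted p = 3.62e-09).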

How the data were processed

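The authors deposited unnormalised read counts, 1 row per transcript model of whole-seedling mRNA; per the file headers they come from featureCounts 1.6.2, which counted a read for every overlapping model, and STAR, featureCounts, DESeq2 and TAIR10 are named in the submitters' processing notes. The exonic length of each model is given per the file headers (another unit, bases). Of 48 count columns, 1 stands in 2 tables with identical values. The 3 d dark columns occur in both title series; same-numbered columns differed by little more than counting error (chi-square per degree of freedom 1.04 to 1.06, against 7.12 to 41.3 for other numbers, over genes with at least 50 counts), so each pair was summed as runs of 1 library, leaving 42. The longest model of each gene was used (65.2% of all counts). CPM take the library total over these models, without TMM factors.

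edgeR 4.0.16 (R 4.3.3) fitted 1 mean per group to all libraries, with filterByExpr, TMM factors (0.755 to 1.15), 28 residual degrees of freedom, its robust quasi-likelihood test and p-values adjusted over 22586 genes by Benjamini-Hochberg; an adjusted p below 0.05 is a call, and the biological coefficient of variation was 21.1%. DESeq2 1.42.0, other scalings, filters, transcript rows, a replicate block and each library left out were tried. The code was tested on simulated data. Same-numbered libraries deviated together (correlations 0.139 to 0.19) only between the genotypes at 3 d dark, where the replicate block left 30 members called. The 30 members were all open to naming, beside KIN10, KIN11 and the extremes of each list; the members and lists were chosen with earlier results of these data known. Promoter windows came from RefSeq's TAIR10.1 FASTA; 51 of 52 member introns read GT to AG at the files' coordinates. Proteins were not used here.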

Additional observations from a re-analysis of the deposited data

Results flagged for a closer look

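The genotypes differed in their response to light at 5 d, by a test of the difference itself (edgeR, mutant minus wild type), for 5 members: PSAN at -1.30, PSBS at -1.37, PETC at -1.04, LFNR1 at -1.16 and ATPD at -1.19 on the log2 scale. Of all genes 11.2% were called in that direction, and the count of members ran from 0 to 9 with any single library left out. Their response to glucose differed for 29 members in darkness (17.5% of all genes), from 1.09 for LFNR1 to 2.44 for PSBO2, and for 22 in light (13.8%), where LFNR2 was at 1.96, PSAN at 1.86 and LFNR1 at 1.85. The dark glucose values include a library of each genotype that lay on the other genotype's side, and their part in the values was not tested beyond leaving them out, which left 14 members called. Glucose and title series cannot be told apart.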

How the results depend on the processing

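With any single library left out, the number of members called ran from 26 to 30 (3 d dark, mutant over wild type), 28 to 30 (5 d dark) and 30 to 30 in the other comparisons of genotypes without glucose; other such ranges were 0 to 0 (genotype, light glucose), 8 to 9 (light, wild type 4 d), 26 to 28 (light, wild type 5 d), 0 to 5 (light, wild type glucose), 0 to 4, 0 to 29 and 0 to 1 (light, mutant 4 d, 5 d and glucose), 0 to 1, 5 to 20 (4 d over 3 d and 5 d over 4 d, wild type dark), 4 to 14, 0 to 28 and 0 to 10 (mutant ages: 4 d over 3 d dark, 5 d over 4 d dark and light), 7 to 22 and 13 to 18 (glucose, wild type dark and light), 4 to 24 and 2 to 7 (glucose, mutant dark and light), and 0 to 9, 26 to 29 and 13 to 25 (genotype by light 5 d, by glucose dark and light). The causes were not tested.

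With only the libraries of a comparison in the fit, which leaves fewer degrees of freedom, counts were 26 (genotype, light glucose), 24 and 1 (light, wild type 4 d and glucose), 2, 0 and 2 (light, mutant 4 d, 5 d and glucose), 3 and 12 (4 d over 3 d dark and 5 d over 4 d light, wild type), 0 and 0 (5 d over 4 d, mutant dark and light) and 1 (genotype by light, 5 d). DESeq2 called 4 (genotype, light glucose), 2 and 5 (light with glucose, mutant and wild type), 1 (4 d over 3 d, wild type), 19 and 5 (5 d over 4 d, mutant dark and light). Library totals gave 1 and 1 (4 d over 3 d dark and 5 d over 4 d light, wild type), 16 (5 d over 4 d, mutant dark), 10 and 12 (glucose, wild type dark and light), 0 (genotype by light, 5 d) and 13 (genotype by glucose, light). No filter gave 1 (genotype, light glucose), 1 and 6 (light, mutant 4 d and 5 d). Without the dark glucose libraries numbered 2, counts were 8 (genotype), 0 and 1 (light with glucose, wild type and mutant), 8 and 5 (glucose in darkness, wild type and mutant) and 14 (genotype by glucose). Without the KIN10-high libraries, which leaves 1 mutant library at 5 d light, they were 0 (light, mutant 5 d), 0 (5 d over 4 d, mutant light) and 3 (glucose, mutant light). No called value changed sign in these alternatives.

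Elsewhere libraries share only a number. The replicate block gave 30 calls for genotype at every age without glucose, lost 3 member calls and gained 7 in all comparisons, and left the PSAH light ratio at -0.27 (adjusted p = 0.0711). That ratio was -0.14 without the KIN10-high libraries and -0.33 to -0.24 with any library left out (adjusted p up to 0.0713), and the PSAD light ratio was -0.14 without the glucose groups (adjusted p = 0.0326). Summed over models, the members' share was 0.861% (mutant 3 d dark), 1.13% (mutant light glucose), 1.88% and 2.67% (wild type 4 d dark and light), 2.24% (5 d light) and 1.65% (light glucose). With longest models only in the denominator it was 1.07%, 0.637%, 1.22%, 1.02%, 1.41% and 0.593% (mutant 3 d dark, 4 d dark, dark glucose, 4 d light, light glucose, 5 d light) and 2.35%, 2.48%, 1.55%, 3.47%, 2.12%, 1.15% and 2.97% (wild type in that order, with 5 d dark before 5 d light). Only 3 libraries a group limit the precision.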

Other observations

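Root-type ferredoxin and ferredoxin-NADP+ reductase genes, which in nonphotosynthetic plastids carry electrons from NADPH to enzymes such as nitrite reductase, went the other way from the members. Of 4 such genes listed, 3 were tested (FD3, RFNR1 and RFNR2). All 3 were called higher in the mutant in the 5 conditions without glucose, with medians of 2.24 at 3 d dark, 2.44 at 4 d dark, 1.98 at 5 d dark, 3.13 at 4 d light and 2.79 at 5 d light. Of the 22586 genes tested, 7130, 13091, 13848, 12187 and 13508 were called in that order, higher or lower. Among these calls, 3225, 6433, 7084, 5685 and 5955 were lower and the rest higher. RFNR1 was highest at 4 d light (3.94 ± 0.40, edgeR adjusted p = 1.39e-09). With glucose none of the 3 was called between genotypes. All 3 were called higher with glucose in wild type, with medians of 1.88 in darkness and 3.02 in light, where glucose and title series cannot be told apart. Of all genes tested, 9692 in darkness and 8211 in light were called there, higher or lower, and 4719 and 4127 of these calls were lower. In the mutant, 1 of the 3 was called lower with glucose in darkness and 2 in light, with medians of -0.81 and -0.997. There, 9190 and 9709 of all genes were called, 4360 and 4470 of them higher. The genotypes' glucose responses differed for all 3, with medians of -2.67 in darkness and -3.57 in light. That difference was called for 8416 of all genes in darkness and 6740 in light, higher or lower, and 3958 and 3126 of these calls were higher.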
